A study of Mus musculus with 20 samples.

Results

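The Sox transcription factors described here are 10 genes, Sox1, Sox2, Sox3, Sox4, Sox5, Sox6, Sox8, Sox9, Sox10 and Sox11, taken by symbol. All 10 were found among the 37994 genes of the developmental table and among the 36104 genes of a second table, made at embryonic day 18 (E18). These tables hold 19 Sox genes each. The cells were single cells of mouse habenula, sorted into 384-well plates and sequenced by CEL-seq2, a method that counts the 3′ ends of transcripts by unique molecular identifiers (UMIs). The developmental plates came from a line labelled Brn3a-tauLacZ, in which Brn3a is an older name of Pou4f1, a transcription factor of habenular neurons. There were 2 plates each at E11, E13, E15, E18, postnatal day 4 (P4), P7 and in adults, with a single further plate at E12. The other table covers C57BL/6 mice at E18: 2 plates of the left side, 2 of the right and 1 of both. For the last of these the sample title reads E1 and the source label E18, and it was used as E18. All plates were untreated, and the copy number of the reporter allele, the animals behind a plate and the number pooled were not given in the sources used here. Several plates shared a sequencing run, which ones was not given in the sources used here, and p-values measure the spread between plates, which may be technical.

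Sox proteins bind DNA through a shared HMG box and are grouped by sequence. Sox1, Sox2 and Sox3 (the SoxB1 group) keep neural progenitors undifferentiated, and Sox4 and Sox11 (SoxC) act in newly formed neurons. Sox5 and Sox6 (SoxD) carry no activation domain of their own and modulate other Sox proteins, and Sox8, Sox9 and Sox10 (SoxE) act in the formation and maturation of glia. The habenula is a small epithalamic relay between the forebrain and the monoamine nuclei of the midbrain, and most of its neurons are made before birth.

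Wells were kept at 1000 or more counts, 500 or more genes and at most 20% mitochondrial counts, which left 3729 of 5756 developmental wells and 1082 of 1920 wells of the C57BL/6 set. Developmental plates kept 56 to 345 wells, with 758697 to 7760372 counts per plate and a median of 5058 to 23108 counts per well. C57BL/6 plates kept 54 to 333 wells and held 1849863 to 6586449 counts. Levels are given as CPM, a gene's counts per 1e6 counts of a plate's kept wells. A share of positive wells is the percentage of kept wells with at least 1 count. Shares are also given thinned, as the share expected if wells were sampled to 2000 UMIs. Thinned shares cover only kept wells of at least 2000 UMIs. This left out 2 to 19 wells per plate, with 16 of 56 on adult replicate 1. Pou4f1, the defining marker of habenular neurons, was detected in 28.1% to 92.2% of kept wells on the developmental plates and in 46.2% to 81.0% on the C57BL/6 plates.

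Some plates stood apart from their partners. E18 replicate 1 held 28.1% Pou4f1-positive wells against 85.5% on replicate 2. Its progenitor and radial glia marker list (Vim, Nes, Hes1, Hes5, Pax6, Fabp7, Slc1a3, Mki67, Top2a) summed to 3839 CPM against 307 CPM, and its astrocyte list to 1340 CPM against 279 CPM. E13 replicate 2 held 3835 CPM of choroid plexus markers against 13.1 CPM on replicate 1. Adult replicate 1 kept only 56 wells, had the highest median mitochondrial share at 11.9%, and held 4304 CPM of oligodendrocyte markers against 976 CPM on replicate 2. In such sums a smaller number of cells and less RNA per cell cannot be told apart.

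**Figure D1:**
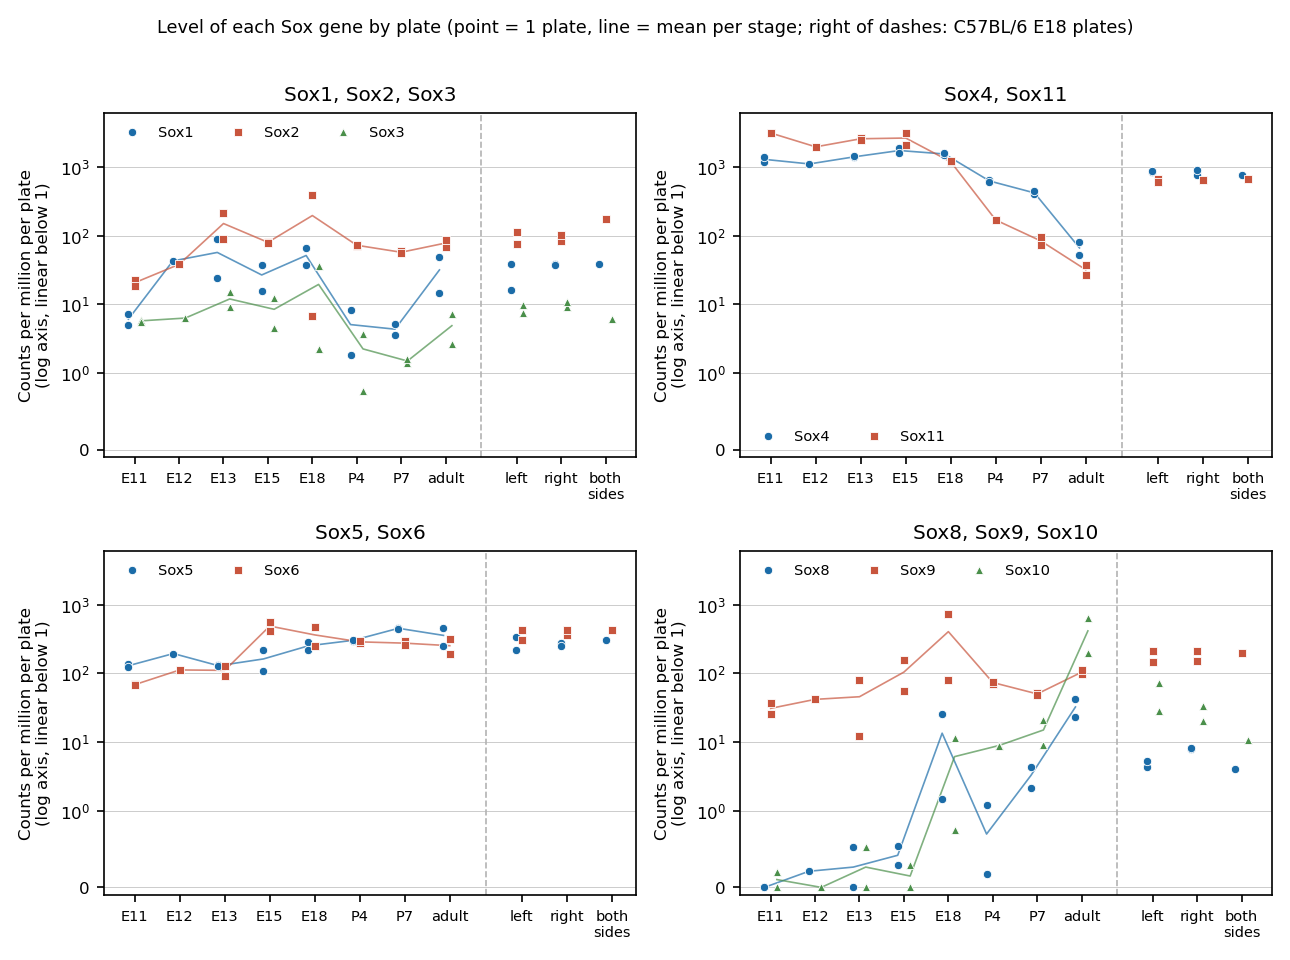
Level of each Sox gene on every plate, in CPM on a log axis that is linear below 1. Each point is 1 plate, lines join the means of the stages, and C57BL/6 E18 plates stand right of the dashed line. Sox11 ran from 3053 and 3149 CPM at E11 to 26.4 and 37.4 CPM in adults, while Sox10 ran from 0 and 0.204 CPM to 630 and 201 CPM.

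Sox4 and Sox11 were the Sox genes detected in nearly all wells of the embryonic habenula, and both fell after birth. Each lies in a single exon on GRCm38 (mm10), Sox4 (ENSMUSG00000076431) at chr13:28948919-28953713 and Sox11 (ENSMUSG00000063632) at chr12:27334264-27342574, both on the minus strand. Their start regions are shown because both genes fell after birth. The stretch covers 150 to 21 bases before the RefSeq start (GRCm38.p6, minus strand), with CCAAT, or ATTGG on the opposite strand, in capitals. The loci above follow the GENCODE M21 annotation, whose starts of both genes differ from the RefSeq starts. Distances below count from the RefSeq start.
Sox4 promoter, chr13:28953720-28953849: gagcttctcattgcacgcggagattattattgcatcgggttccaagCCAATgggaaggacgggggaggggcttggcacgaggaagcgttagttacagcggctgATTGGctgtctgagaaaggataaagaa
Sox11 promoter, chr12:27342739-27342868: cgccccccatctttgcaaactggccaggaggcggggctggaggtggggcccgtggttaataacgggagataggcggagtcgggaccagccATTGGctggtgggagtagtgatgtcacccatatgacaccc
CCAAT on either strand, the letters of the CCAAT box, matched 2 times in the Sox4 stretch, 47 and 104 bases before the start, and 1 time in the Sox11 stretch, 60 bases before it. The same window held it in 22.5% of 32851 promoters. The Sox-type motif ACAAAG (8.76% of promoters) and TATAAA (6.91%) had 0 matches in both stretches. None of these motifs contains another. The promoter table held 7 of the 10 members.

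Sox11 was measured at 3053 and 3149 CPM at E11, 1952 at E12, 2660 and 2457 on the E13 plates, then 3148 and 2094 at E15. It stood at 1157 and 1207 CPM at E18, 166 and 171 on the P4 plates, 73.1 and 94.3 at P7, and 26.4 and 37.4 in adults. The E15 plates overlapped with those of E11 and enclosed those of E13, the E13 plates lay below those of E11, and from E18 on each stage's plates lay below all those of the stage before. By edgeR's quasi-likelihood test with Benjamini-Hochberg adjustment over 17453 genes, Sox11 fell by 2.60 ± 0.29 (SE) on the log2 scale from E18 to P4 (adjusted p = 0.000721). Every SE given here is approximate, the size of the log2 change divided by the square root of the test's F. The same test gave a fall of 1.46 ± 0.29 from P7 to adult (adjusted p = 0.0255). The steps from E15 to E18 (adjusted p = 0.0898) and from P4 to P7 (adjusted p = 1.0) did not pass. Between E11 and P7 Sox11 fell by 5.17 ± 0.32 (adjusted p = 5.32e-06). The P7 to adult call was lost without E11 replicate 1 (adjusted p = 0.0553) or 2 (0.0556), P4 replicate 1 (0.0549) or 2 (0.0546), P7 replicate 1 (0.141) or 2 (0.215), or adult replicate 1 (0.176). The E18 to P4 and E11 to P7 calls held in every alternative run.

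Sox4 was measured at 1183 and 1384.5 CPM at E11, 1101 at E12, 1381 and 1416 at E13, 1890 and 1562 at E15, and 1470 and 1603 at E18. It stood at 638 and 607 CPM on the P4 plates, 397 and 438 at P7, and 51.4 and 80.9 in adults. Every embryonic plate of the series lay above every postnatal one. Sox4 fell by 1.09 ± 0.26 from E18 to P4 (edgeR, adjusted p = 0.0160) and by 2.74 ± 0.28 from P7 to adult (adjusted p = 0.00166). It fell by 1.57 ± 0.26 from E11 to P7 (adjusted p = 0.00139). The E18 to P4 call was lost without P4 replicate 1 (0.114) or 2 (0.132) and in a fit of those 4 plates alone (0.132), while the other calls held in every alternative run.

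The pair did not fall in step, so the ratio of Sox11 to Sox4 counts moved with stage. It was 2.58 and 2.27 at E11, 1.77 at E12, 1.93 and 1.74 on the E13 plates, then 1.67 and 1.34 at E15. It stood at 0.787 and 0.753 at E18, 0.260 and 0.281 on the P4 plates, 0.184 and 0.215 at P7, and 0.513 and 0.462 in adults. C57BL/6 plates at E18 ranged from 0.681 to 0.866, a range that includes both E18 plates of the other line. In adults both genes were at their lowest levels, and the ratio was above that at P7 and P4. Pou4f1-positive wells made up 90.8% and 88.1% of kept wells at P7 and 37.5% and 52.6% in adults. Dissociation genes (Fos, Jun, Junb, Egr1, Hspa1a, Hspa1b, Ier2) summed to 797 and 959 CPM at P7 and 1899 and 2551 CPM in adults. The part of either in the adult levels of Sox4 and Sox11 was not tested.

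Thinned shares of positive wells fell after birth for both genes, as did unthinned Sox11 shares. Unthinned Sox4 shares had means of 96.6% at E18, 97.1% at P4 and 94.2% at P7, against 87.0%, 68.4% and 54.8% thinned. Sox11 was detected in 100% and 99.7% of wells at E11, 93.3% and 93.6% at E18, 77.4% and 82.3% on the P4 plates, 59.5% and 60.2% at P7, and 17.9% and 29.8% in adults. Thinned to 2000 UMIs, the Sox11 shares were 97.6% and 99.0% at E11, 69.8% and 81.2% at E18, 26.4% and 28.2% on the P4 plates, 12.9% and 17.6% at P7, and 3.7% and 8.1% in adults. Sox4 shares were 99.0% and 98.8% at E11, 96.6% and 91.8% at P7, and 30.4% and 54.1% in adults. Thinned, these were 84.0% and 87.5%, 53.1% and 56.5%, and 11.4% and 14.7%. At E11 647 of 654 kept wells held both transcripts.

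**Figure D2:**
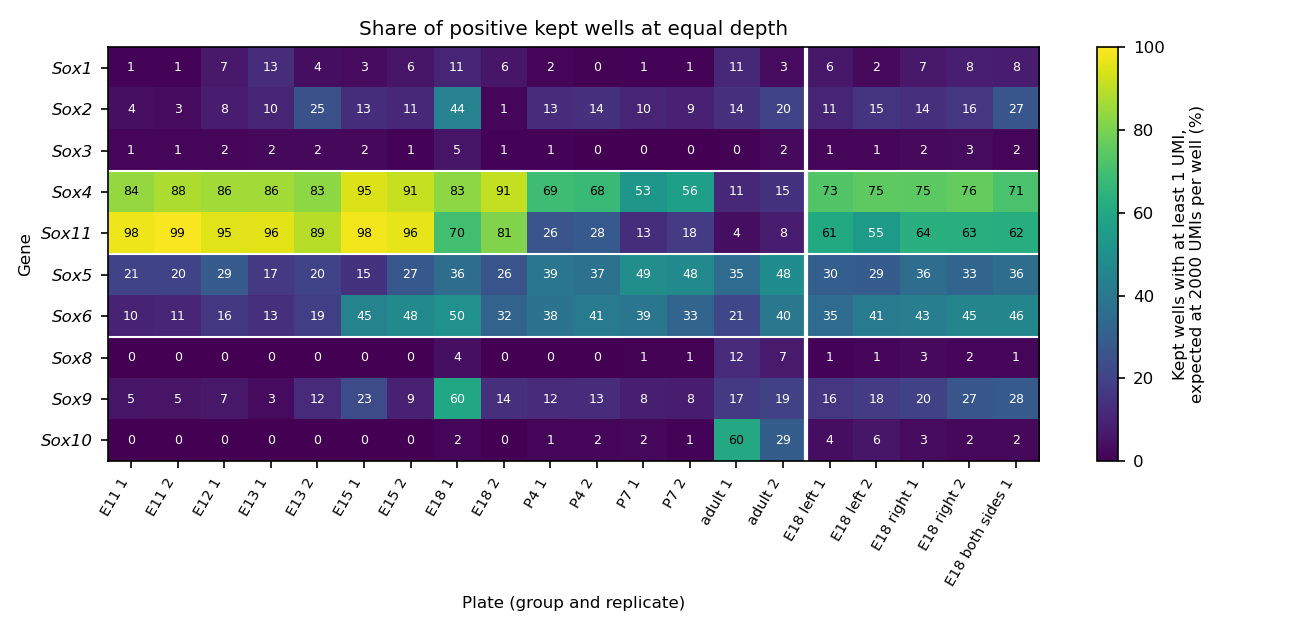
Percentage of kept wells expected to hold at least 1 UMI at 2000 UMIs per well, for each Sox gene (rows) and plate (columns). Only kept wells of at least 2000 UMIs enter, and the white vertical line separates the C57BL/6 plates. Sox4 and Sox11 fill the embryonic columns, with 84.0% and 97.6% on E11 replicate 1, and Sox10 reaches 60.5% on adult replicate 1.

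The SoxC pair was also measured within Pou4f1-positive wells, those with at least 1 Pou4f1 count, where the test compared E11 with P7. In these wells Sox11 stood at 3058 and 3066 CPM at E11, 1793 and 1244 at E18, 165 and 167 on the P4 plates, 71.6 and 94.6 at P7, and 25.2 and 29.9 in adults. Sox4 stood at 1183 and 1336 CPM at E11, 1908 and 1652 at E18, 645 and 618 on the P4 plates, 398 and 440.0 at P7, and 48.6 and 79.4 in adults. The step from E18 to P4 was not tested in these wells. From E11 to P7 Sox11 fell by 5.14 ± 0.30 (edgeR, adjusted p = 7.23e-07) and Sox4 by 1.53 ± 0.25 (adjusted p = 0.000564). Here 35% of 16353 genes were called, 16.2% as lower and 18.8% as higher. These wells come from the same plates as the whole-plate sums and are no second sample. Of 6 genes reported as targets of SoxC factors in new neurons, 6 fell in Pou4f1-positive wells (Tubb3, Dcx, Map2, Tead2, Nhlh1, Stmn1), with a median change of -2.28 on the log2 scale against 0.01 over all genes. Of the 10 neuron markers, which share Tubb3 and Map2 with that list, 6 also fell there and 2 rose (Snap25, Rbfox3), and 5 of 9 progenitor and radial glia markers fell. Their part in the Sox values was not tested. Over all kept wells 5 of the 6 fell, all but Map2, where 13.2% of genes were lower.

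Across comparisons of neighbouring stages the 10 members were called in few steps, and their count has to be read beside that of all genes. From E11 to E13 0 of 10 members passed, with 1.45% of all genes called. From E13 to E15 1 of 10 rose, Sox6, with 0.0917% called in either direction and 0.0516% as higher. From E15 to E18 0 of 10 passed (0.195% of genes), and from P4 to P7 0 of 10 (0.00573%). From E18 to P4 4 of 10 fell (Sox1, Sox4, Sox8, Sox11), with 10.4% of all genes lower and 19.6% called. From P7 to adult Sox10 rose (1.76% of genes higher) and Sox4 and Sox11 fell (1.82% lower), with 3.58% called in all. From E11 to P7 Sox5, Sox6, Sox8 and Sox10 rose and Sox4 and Sox11 fell, where 28.6% of genes were called, 15.4% higher and 13.2% lower. All 10 members passed the filter on low counts in these fits, and comparisons that share a stage share its plates. Sox8 was highest on the adult plates (42.2 and 22.9 CPM) and E18 replicate 1 (25.5 CPM). These plates also entered the filter, so the calls of Sox8 are descriptions only. The E11 to P7 call of Sox10, at 0 and 0.204 CPM at E11, is likewise a description only.

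Sox6, which shapes the timing of neuronal and glial differentiation, was the member that rose between E13 and E15. It lies on the minus strand of chr7:115470872-116038796, with up to 17 exons over 567925 bases. Levels were 69.0 and 68.3 CPM at E11, 112 at E12, 92.1 and 130 on the E13 plates, then 414 and 563 at E15. They were 473 and 253 CPM at E18, 275 and 300.5 on the P4 plates, 294 and 257 at P7, and 194 and 312 in adults. E11 and E13 plates were all below every later plate, and the stages from E18 to adult overlapped with their neighbours. Sox6 rose by 2.28 ± 0.32 from E13 to E15 (edgeR, adjusted p = 0.0356) and by 2.06 ± 0.32 from E11 to P7 (adjusted p = 0.000883). Within Pou4f1-positive wells it stood at 64.7 and 59.5 CPM at E11, 97.7 and 140 at E13, 453 and 574 at E15, and 291 and 240 at P7. There it rose by 2.16 ± 0.27 from E11 to P7 (adjusted p = 9.34e-05). The share of Sox6-positive wells was 41.8% and 53.3% at E13 and 76.1% and 76.5% at E15, or 13.4% and 18.5% against 44.6% and 47.8% when thinned.

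The E13 to E15 call for Sox6 was near the threshold, although its size ranged only from 2.01 to 2.59 over 23 alternatives. It was lost without E11 replicate 1 (adjusted p = 0.0849) or 2 (0.0856), E13 replicate 1 (0.0547) or 2 (0.177), E15 replicate 2 (0.199), P4 replicate 1 (0.0880) or 2 (0.0889), or P7 replicate 1 (0.0726) or 2 (0.0736). It was also lost with a replicate block (0.0577), on spliced transcripts alone (0.0605) and in a fit of the 4 plates alone (0.216). The E11 to P7 calls held in every alternative run.

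Sox5, the second SoxD gene, known for its part in the identity of projection neurons, ran a slower course. It lies on the minus strand of chr6:143828425-144781977, over 953553 bases and up to 15 exons. Levels were 135 and 124 CPM at E11, 195 at E12, 132 and 126 on the E13 plates, then 109 and 216 at E15. They were 285 and 219 CPM at E18, 301 and 306 on the P4 plates, 458.1 and 449 at P7, and 252 and 462 in adults. No single step passed, but Sox5 rose by 1.86 ± 0.34 from E11 to P7 (edgeR, adjusted p = 0.00257). In Pou4f1-positive wells it rose by 1.91 ± 0.43 (adjusted p = 0.00491), a call lost without E11 replicate 2 (0.0524). The P7 plates did not overlap with E11, E13, E15, E18 or P4, but lay within the range of the adult plates.

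Most of what was counted for Sox5 and Sox6 was unspliced. Of 16995 Sox5 UMIs on the developmental plates 82.5% were assigned to unspliced transcripts, from 80.0% to 90.1% by plate. For Sox6 64.0% of 14830 UMIs were unspliced, from 52.5% to 78.9% by plate. Over all genes the unspliced share was 17.7% to 26.4% by developmental plate. The C57BL/6 plates gave 82.2% for Sox5 and 65.9% for Sox6, beside 22.5% to 29.2% over all genes by plate. The short SoxE genes had 4.48% (Sox8), 1.37% (Sox9) and 1.03% (Sox10) unspliced UMIs on the developmental plates. On the C57BL/6 plates these were 2.94%, 1.11% and 6.30%. Sox1, Sox2, Sox3, Sox4 and Sox11 have 1 exon each and no intron, so no unspliced UMIs could be assigned to them. Without the unspliced part, Sox6 stood at 25.1 and 30.4 on the CPM scale at E11, 43.7 and 55.8 on the E13 plates, then 167 and 188 at E15. On the same scale Sox5 stood at 19.5 and 21.7 at E11 and 76.7 and 89.7 at P7. Annotated transcripts on the opposite strand lie within both loci, among them Sox6os and Sox5os1, and the strand setting of the counting was not given in the sources used here. Sox5it and Gm44068 overlap Sox5 on the same strand.

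**Figure D3:**
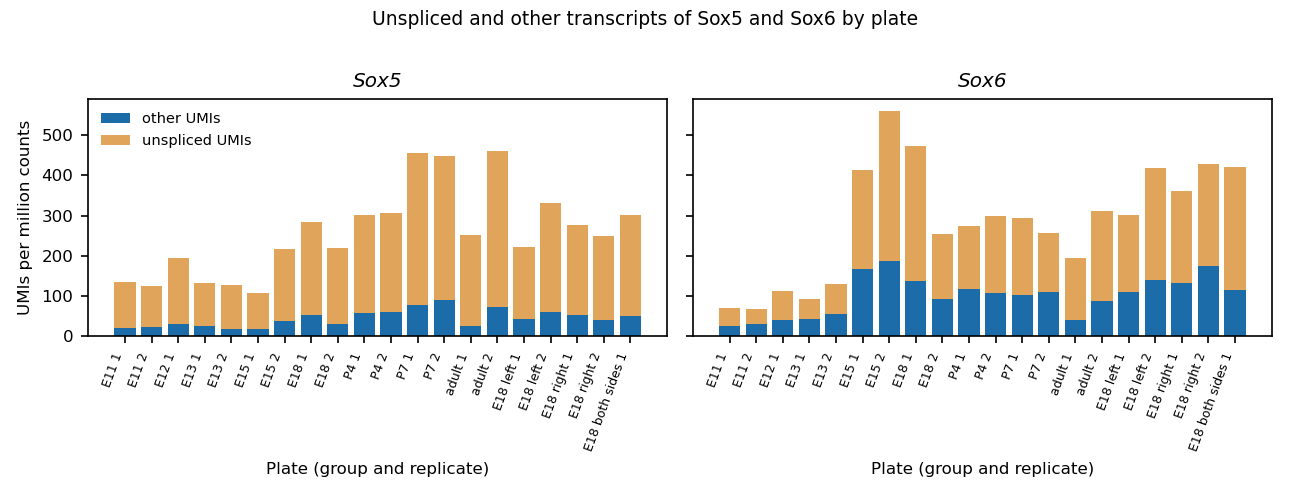
Unspliced (orange) and other (blue) UMIs of Sox5 and Sox6 on each plate, on the CPM scale, stacked from 0. Unspliced UMIs form the larger part in all 20 plates for both genes, and other Sox6 UMIs go from 43.7 and 55.8 at E13 to 167 and 188 at E15.

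Sox2, a central factor of neural stem cells, was low on E11 plates and differed widely between the plates of E13 and of E18. Its single exon lies at chr3:34650405-34652461, inside the noncoding gene Sox2ot on the same strand. Levels were 22.6 and 18.6 CPM at E11, 38.1 at E12, 89.9 and 209.5 on the E13 plates, then 82.0 and 77.6 at E15. They were 384 and 6.78 CPM at E18, 71.6 and 73.0 on the P4 plates, 58.8 and 55.6 at P7, and 68.6 and 87.3 in adults. The E18 plates enclosed the plates of every other stage, with replicate 1 the highest and replicate 2 the lowest of the series. Sox2ot differed in the same way, at 227 and 13.6 CPM. Sox2 passed no test between stages. The progenitor marker sums of these E18 plates were 3839 and 307 CPM, and their part in the Sox2 levels was not tested. Nor was that of the choroid plexus markers on E13 replicate 2, the E13 plate with more Sox2.

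Within plates, Sox2 was higher in Top2a wells, on most plates higher in Slc1a3 wells, and lower in Pou4f1-positive ones. At E11 Sox2 stood at 159.5 and 305 CPM in wells with a count of Top2a, a topoisomerase of dividing cells, against 2.44 and 3.87 CPM in the other wells. It was detected in 46.3% of 41 and 52.6% of 19 Top2a wells and in 3.4% of 268 and 4.3% of 326 others, at median depths of 14584 and 11658 against 15827 and 12214 counts. Sox2 was higher in Top2a wells on 8 of 8 developmental and 3 of 3 C57BL/6 plates with at least 10 wells on each side. It was higher in wells with Slc1a3, a glutamate transporter of radial glia and astrocytes, on 11 of 12 and 5 of 5 plates. The plate against this was E18 replicate 2. In wells with Mog, a myelin surface protein, Sox2 was lower on 2 of 2 developmental plates (medians of 55.9 against 160 CPM). Sox2 was also lower on 2 of 2 C57BL/6 plates, a set where Mog itself was only at 0.152 to 5.07 CPM. In wells with Pdgfra, found in oligodendrocyte precursors, Sox2 was higher on 4 of 6 and 2 of 3 plates.

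Sox2 was lower in Pou4f1-positive wells on 15 of 15 developmental plates, with medians of 51.8 CPM there and 225 CPM in the other wells. In a fit with plate as a block it was lower in Pou4f1-positive wells, with a log2 difference of -2.18 ± 0.22 (edgeR, adjusted p = 1.22e-06). On the 5 C57BL/6 plates the difference was -2.11 ± 0.25 (adjusted p = 0.000298). Both calls held in every alternative run. The gated wells were deeper, with a median of 16269 against 6650 counts over the developmental plates. They also differed in all 9 progenitor and radial glia markers (lower) and all 10 neuron markers (higher), and 7 of 7 dissociation genes were lower, where 16.6% of all genes were lower and 19.2% higher.

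Sox3, another SoxB1 gene, at chrX:60891366-60893430 on the minus strand, was rare. It stood at 5.99 and 5.52 CPM at E11, 6.32 at E12, 9.09 and 14.9 at E13, 12.5 and 4.46 at E15, and 36.7 and 2.26 at E18. Later levels were 3.73 and 0.767 CPM on the P4 plates, 1.42 and 1.58 at P7, and 2.64 and 7.16 in adults. From E13 to E18 its plates overlapped and no step between stages passed the test. Sox3 was lower in Pou4f1-positive wells on 15 of 15 plates, by -2.70 ± 0.36 (edgeR, adjusted p = 1.35e-05), and on 5 of 5 C57BL/6 plates, by -2.22 ± 0.38 (adjusted p = 0.00220). Medians were 3.04 against 21.6 CPM in the other wells, and 5.51 against 26.5 CPM on the C57BL/6 plates. Those other wells also entered the filter on low counts, so these calls of Sox3 are descriptions only. On E18 replicate 1 44 of 48 Sox3-positive wells also held Sox2, which was detected in 76.4% of all its wells. On the C57BL/6 plates 75 of 101 did, with Sox2 in 40.4% of all wells.

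Sox1, the remaining SoxB1 gene, had its lowest levels at E11, P4 and P7. Its single exon is at chr8:12395295-12400126, within Sox1ot on the same strand. Levels were 5.02 and 7.16 CPM at E11, 42.8 at E12, 89.8 and 23.9 on the E13 plates, then 15.7 and 37.8 at E15. They were 65.1 and 37.7 CPM at E18, 8.31 and 1.84 on the P4 plates, 3.61 and 5.10 at P7, and 48.8 and 14.5 in adults. Plates from E12 to E18 and adult plates lay above those of E11, P4 and P7. Sox1 fell by 3.13 ± 0.82 from E18 to P4 (edgeR, adjusted p = 0.0240). That call was lost without E18 replicate 1 (-2.79, adjusted p = 0.0927) or P4 replicate 2 (-2.40, 0.167) and in a fit of the 4 plates alone (0.0821), and became -4.48 without P4 replicate 1 (0.0474). Against Pou4f1 the difference was -1.08 ± 0.46 on the developmental plates and did not pass (adjusted p = 0.0716). It passed there without E12 replicate 1 (0.0387), E13 replicate 2 (0.0472) or E15 replicate 1 (0.0337) and without a filter on low counts (0.0145). On C57BL/6 plates Sox1 was lower in Pou4f1-positive wells by -1.16 ± 0.22 (adjusted p = 0.00429), on 5 of 5 plates.

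The overlap of Sox1 with Sox2 in the same wells is given beside the share of all wells with Sox2, since the plates differ widely in it. At E11 18 of 22 Sox1-positive wells held Sox2, a gene detected in 7.95% of all wells. At E12 10 of 53 did, with Sox2 in 19.9% of all wells. On the E13 plates 15 of 47 and 11 of 18 Sox1-positive wells held Sox2, with Sox2 in 28.1% and 64.2% of all wells. On the E15 plates 7 of 20 and 12 of 59 did, with Sox2 in 37.2% and 30.5%. At E12 Sox1 stood at 43.9 CPM in Pou4f1-positive and 16.0 CPM in Pou4f1-negative wells. At E11 the share of Sox1-positive wells with Sox2 lay above that of all wells on both plates, at 100% of 11 and 63.6% of 11. From E12 to E15 it lay above it on 1 of 5 plates, E13 replicate 1. These counts are small, and the difference between stages was not tested.

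**Figure D4:**
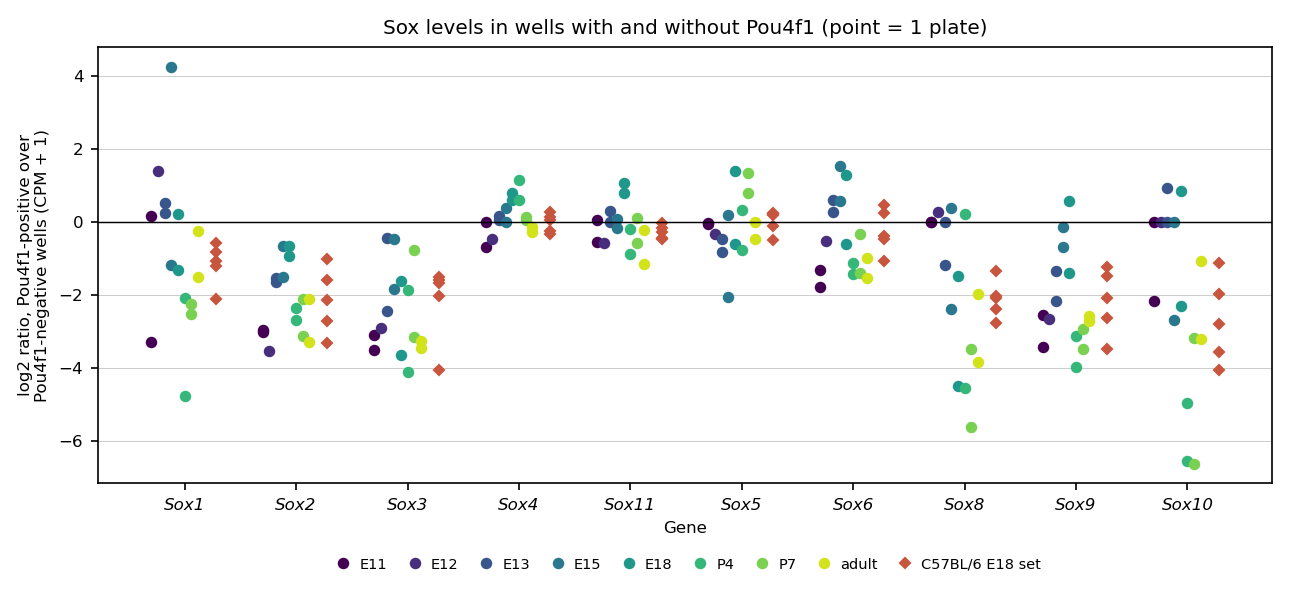
log2 ratio of each Sox gene between Pou4f1-positive and Pou4f1-negative wells of a plate, from CPM + 1; each point is 1 plate, coloured by stage, with C57BL/6 plates as red diamonds. Sox2 and Sox3 lie below 0 on 15 of 15 developmental plates, and Sox4, Sox5, Sox6 and Sox11 lie on both sides of 0.

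Sox9, which starts gliogenesis in the neural tube, was the SoxE gene present at every stage. It lies at chr11:112782224-112787760 with 3 exons. Levels were 36.6 and 25.5 CPM at E11, 42.0 at E12, 12.5 and 79.2 on the E13 plates, then 154 and 55.0 at E15. They were 731 and 79.9 CPM at E18, 71.3 and 76.3 on the P4 plates, 52.7 and 48.0 at P7, and 97.6 and 111 in adults. E18 replicate 1, with 3839 CPM of progenitor markers, was the highest, and no step between stages passed the test. Sox9 was lower in Pou4f1-positive wells on 14 of 15 developmental plates, by -2.26 ± 0.30 (edgeR, adjusted p = 1.25e-05), with E18 replicate 2 the exception. On 5 of 5 C57BL/6 plates it was lower, by -2.13 ± 0.26 (adjusted p = 0.000335). At E11 Sox9 stood at 182 and 188 CPM in Top2a wells against 15.1 and 17.2 CPM in others. On C57BL/6 plates it had a median of 584 CPM in Slc1a3 wells and 71.9 CPM in others, higher on 5 of 5 plates. On E18 replicate 1 183 of 204 Sox2-positive wells held Sox9 (89.7%), near the 87.6% of all its wells. On the P7 plates 50 of 122 and 35 of 87 did (41.0% and 40.2%), beside 37.1% and 30.6% of all wells.

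Sox10, the factor that drives oligodendrocyte maturation and myelin genes, was nearly absent before E18 and rose into adulthood. Its locus is chr15:79154908-79165240 on the minus strand. It was measured at 0 and 0.204 CPM at E11, 0 at E12, 0 and 0.531 on the E13 plates, then 0 and 0.297 at E15. It stood at 11.6 and 0.753 CPM at E18, 9.0 and 8.91 on the P4 plates, 20.9 and 9.17 at P7, and 630 and 201 in adults. The adult plates lay far above all others. From P7 to adult Sox10 rose by 4.64 ± 0.68 (edgeR, adjusted p = 0.00884). That call was lost without P7 replicate 1 (5.36, 0.0742) or 2 (4.13, 0.134) or adult replicate 1 (3.58, 0.0535), and became 5.32 without adult replicate 2 (0.00278). From E11 to P7 Sox10 rose from 1 to 215 counts, a ratio of 161 with a 95% counting interval of 28.6 to 6390 (edgeR adjusted p = 0.00210). This call held in every alternative run. With Sox10 at 0 to 0.531 CPM from E11 to E15, it passed the filter on low counts through later plates, P7 among them. The E11 to P7 call is therefore a description only. The size rested on single plates, since P7 replicate 1 held 162 of the 215 counts and E11 replicate 2 the only count at E11. The fitted log2 change of 6.91 became 6.14 without P7 replicate 1, 6.06 without E11 replicate 1 and 8.93 without E11 replicate 2, where E11 is at 0 counts and the fitted value depends on the prior count.

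Most adult wells held Sox10, those with Pou4f1 included. Sox10 was detected in 83.9% and 67.8% of adult wells, against 9.5% and 2.4% at P7. Thinned shares were 60.5% and 29.3% in adults and 2.3% and 0.90% at P7. Mog was at 301 and 58.9 CPM on the adult plates but only at 0.152 to 5.07 CPM on the C57BL/6 plates. In adult wells with Mog, Sox10 stood at 664 and 276 CPM against 317 and 180 CPM in the others. On 2 of 2 C57BL/6 plates at E18, Sox10 was lower in the wells with these few Mog counts (medians of 8.69 against 26.5 CPM). Among Pou4f1-positive wells, where neurons should lack it, 100% of 21 and 74.4% of 180 held Sox10, at 485 and 75.7 CPM. In Pou4f1-negative adult wells 74.3% of 35 and 60.5% of 162 held Sox10, at 1025 and 700.3 CPM. Median depths were 14003 and 22176 against 3098 and 5323 counts. The shares run against the CPM, so no order is read from them. The part of free RNA and of wells with more than 1 cell in these shares was not tested. Of 8 listed genes reported as SoxE targets 7 were tested (Mbp, Mag, Mog, Erbb3, Gjb1, Myrf, Cnp). All 7 rose from P7 to adult, where 1.76% of all genes were higher. Low genes such as Mog, at 0 and 0.176 CPM at P7, passed the filter through the adult plates, so this count is a description only. Mbp, which encodes a major myelin protein, stood at 39.3 and 23.0 CPM at P7 and 997 and 298 CPM in adults. The oligodendrocyte list (Mbp, Mog, Mag, Mobp, Cldn11, Cnp, Ermn), which shares 4 of these genes, went from 109 and 81.3 CPM at P7 to 4304 and 976 CPM. Its part in the Sox10 result was not tested.

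Sox8, a SoxE gene of the oligodendrocyte and astrocyte lineages, had 0 counts at E11, where 3 counts per plate would be a mean of 0.596 CPM. It stood at 0.211 CPM at E12, 0 and 0.531 at E13, 0.543 and 0.297 at E15, 25.5 and 1.51 at E18, and 0.170 and 1.23 at P4. Later levels were 2.19 and 4.40 CPM at P7 and 42.2 and 22.9 CPM in adults. The adult plates and E18 replicate 1 also entered the filter on low counts, so the calls of Sox8 are descriptions only. From E11 to P7 it was at least 5.53-fold higher against a floor of 3 counts per plate (edgeR adjusted p = 0.0221), a call lost without E11 replicate 1 (0.109) or 2 (0.105) or P7 replicate 2 (0.0817). Sox8 fell by 3.96 ± 1.11 from E18 to P4 (adjusted p = 0.0329), on 64 and 2 against 1 and 8 counts. Without E18 replicate 1 this was -0.92 (0.734), without replicate 2 -4.72 (0.00219), and without P4 replicate 1 -3.14 (0.174) or 2 -5.84 (0.0942). It was also lost without P7 replicate 1 (0.0515) or 2 (0.0521) and with a replicate block (0.0631), so it rests on E18 replicate 1, the plate with 3839 CPM of progenitor markers. On E18 replicate 1 33 of 35 Sox8-positive wells held Sox9, beside 87.6% of all its wells. On C57BL/6 plates 67 of 69 did, with Sox9 in 55.6% of all wells. On the adult plates 14 of 15 and 56 of 64 Sox8-positive wells held Sox10, beside 83.9% and 67.8% of all wells, and 9 and 27 of them held Sox9, beside 37.5% and 48.5%.

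On the C57BL/6 plates all SoxE genes were lower in Pou4f1-positive wells. Sox8 differed by -2.40 ± 0.35 (edgeR, adjusted p = 0.000799) and Sox10 by -2.76 ± 0.36 (adjusted p = 0.000464). In Pou4f1-positive wells Sox8 had a median of 3.27 CPM against 20.4 CPM in the others, and Sox10 17.2 against 76.4 CPM. The other wells also entered the filter on low counts, so these calls are descriptions only, as for Sox3. Together with Sox1, Sox2, Sox3 and Sox9, 6 of 10 members were lower and 0 higher. Of 12963 genes 10.8% were lower, 6.71% higher and 17.5% called. A stricter gate of 2 or more Pou4f1 counts gave -4.38 for Sox8, -4.74 for Sox10, -2.94 for Sox3, -2.84 for Sox9 and -2.70 for Sox2. On the developmental plates 3 of the 8 members tested were lower (Sox2, Sox3, Sox9) and 0 higher, where 16.6% of 10148 genes were lower, 19.2% higher and 35.8% called. Sox8 and Sox10 did not pass the filter there. Sox4, Sox5, Sox6 and Sox11 were not called on either set. Sox4 was higher in Pou4f1-positive wells on 11 of 15 developmental plates, Sox11 on 6, Sox5 on 5 and Sox6 on 5. On the C57BL/6 plates Sox4 and Sox5 were higher there on 3 of 5, Sox6 on 2 and Sox11 on 0 of 5, with Sox11 medians of 603 CPM in Pou4f1-positive and 726 CPM in other wells.

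Other marker genes placed the members within the plates. In wells with Neurog2, a proneural factor of neurons being born, Sox4 was higher on 7 of 7 developmental plates, with medians of 1839 against 1264 CPM, and on 4 of 4 C57BL/6 plates. Sox11 was higher on the same 7 of 7 (3168 against 2551 CPM) and 4 of 4 plates. In dividing Top2a wells each of them was higher on only 2 of 8 plates. Pdgfra, a growth factor receptor of oligodendrocyte precursors and fibroblasts, marked wells where Sox10 was higher on 5 of 6 developmental plates, with adult replicate 1 (466 against 848 CPM) the exception. Sox10 was also higher on 3 of 3 C57BL/6 plates, with medians of 293 against 1.91 CPM. Sox6 was higher in Pdgfra wells on 6 of 6 and 3 of 3 plates, with C57BL/6 medians of 793 and 338 CPM. These counts of plates are descriptions without a test.

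**Figure D5:**
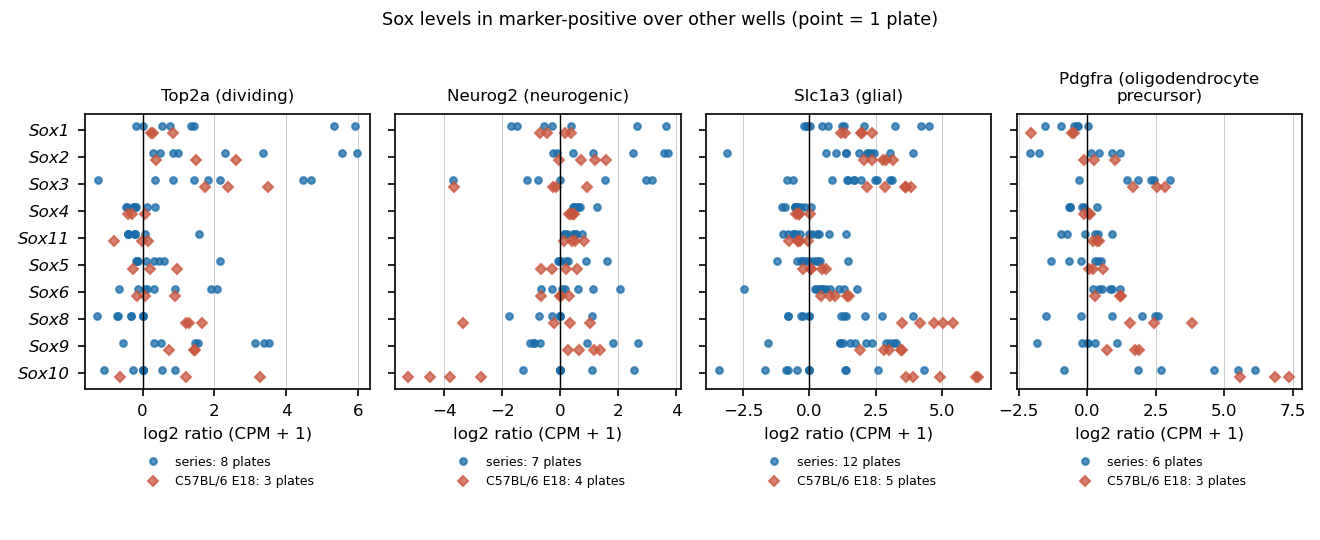
log2 ratio of each Sox gene between wells with and without a count of Top2a, Neurog2, Slc1a3 or Pdgfra, from CPM + 1; each point is 1 plate with at least 10 wells on each side, blue for the developmental plates and red for C57BL/6. Sox2 lies above 0 on 8 of 8 blue plates for Top2a, Sox4 and Sox11 on 7 of 7 for Neurog2, and Sox10 on 3 of 3 red plates for Pdgfra.

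Left and right habenula at E18 were compared on 2 plates a side, to ask whether Sox genes differ between sides. Sox4 stood at 852 and 879 CPM on the left and 752 and 901 CPM on the right, and Sox11 at 662 and 599 against 642 and 639.7 CPM. Sox2 stood at 75.1 and 111 against 82.1 and 103 CPM, and Sox9 at 145 and 212 against 150.5 and 212 CPM. Sox5 was at 221 and 334 against 278 and 250.5 CPM, and Sox6 at 302 and 422 against 363 and 430 CPM. Left and right plates of these 6 genes overlapped. Sox10 stood at 28.8 and 73.0 CPM on the left and 20.3 and 33.4 CPM on the right, and Sox3 at 7.60 and 9.74 against 9.05 and 10.7 CPM. Sox1 was at 39.0 and 16.2 against 39.1 and 37.5 CPM, and Sox8 at 4.39 and 5.41 against 7.96 and 8.36 CPM. Sox8 was the only member whose left and right plates did not overlap. None of the 10 members was called, and 0 of 15489 genes were (0% called), with 182 at an unadjusted p below 0.05 by edgeR and 1 called by DESeq2. Erythroid markers differed by plate, at 19048 and 17219 CPM on the left and 3410 and 265 CPM on the right.

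The genes whose plate pattern was most like a member's were named by Pearson's r of log2(CPM + 1) over the 15 developmental plates, among 10817 genes. For Sox4 they were Gm26735 (r = 0.99), which lies opposite to Sox4 on the other strand, Mex3a (0.98) and Zbtb8a (0.98). For Sox11 they were Acvr2b, Elavl2 and Ssbp3 (each 0.99). Sox10 was most like Gpr37l1 (0.99), Ntsr2 (0.97) and Map7 (0.97), and Sox2 most like C2cd3 (0.97), Elk4 (0.97) and Vamp3 (0.94). For Sox5 the closest gene was Col25a1 (0.96), for Sox6 C130071C03Rik (0.93), for Sox9 Paqr8 (0.92), for Sox8 Josd2 (0.96), for Sox3 Gm20427 (0.94) and for Sox1 Sdhaf4 (0.85). Sox4 and Sox11 had r = 0.90 with each other, and Sox4 and Sox10 had r = -0.94. These values describe plates that share stage, depth and cell mix.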

How the data were processed

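The members and gene lists were chosen with earlier results of these data known; some listed genes are not reported here and were left out of the lists. The authors deposited expected counts per gene and well, corrected for UMI saturation over 4096 possible UMIs. UMI numbers recovered from them were whole for 100% of values (tolerance 1e-06). The submitters' processing notes name mm10 and STAR 2.5.3a; the counting program and strand setting were not given in the sources used here. GENCODE M21 held 37938 of 37994 and 36050 of 36104 gene identifiers. Spike-ins were left out, and 0 sample columns stayed unused. Kept wells were summed by plate and rounded, then tested with edgeR 4.0.16 (filterByExpr, TMM, quasi-likelihood, Benjamini-Hochberg over all genes tested, threshold 0.05) in R 4.3.3 with limma 3.58.1; DESeq2 1.42.0 was an alternative. The E12 plate stayed out of the stage fits, which covered the other 14 developmental plates. Pou4f1 gates used 2 sums per plate with plate as a block. Code was tested on simulated data. No doublet caller was run, and wells above 3 times the plate's median counts were left out in an alternative. No well among the 4811 kept was identical to another. Intervals and limits of 0 cover counting error only. Named genes are the 10 members, listed pathway genes, and for each member the 3 genes with the most alike pattern among genes with a mean of at least 10 CPM. Other steps ran in Python 3.11.15 with pandas 2.3.3, numpy 2.4.6, scipy 1.17.1 and matplotlib 3.10.9.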

Additional observations from a re-analysis of the deposited data

Results flagged for a closer look

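Members whose level in Pou4f1-positive over Pou4f1-negative wells went one way on both plates of one stage and the other way on both plates of another are given as mean log2 ratios of 2 plates, and the differences between stages were not tested. A single stage is shown for each direction, with the number of stages going that way. Sox1 was higher in Pou4f1-positive wells at E13 (0.39, 1 stage) and lower at P7 (-2.68, 2 stages). Sox4 was higher at P4 (0.88, 5 stages) and lower in adults (-0.21, 1 stage). Sox5 was higher at P7 (1.08, 1 stage) and lower at E13 (-0.65, 3 stages). Sox6 was higher at E15 (1.06, 2 stages) and lower at E11 (-1.56, 4 stages). Sox11 was higher at E18 (0.94, 1 stage) and lower in adults (-0.70, 2 stages). On the C57BL/6 plates, also at E18, Sox11 was lower on 5 of 5.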

How the results depend on the processing

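The number of genes called moved with the settings. Without a filter on low counts 1715 genes were called from E11 to E13, 1249 from E13 to E15, 1461 from E15 to E18, 136 from P4 to P7, 1766 from P7 to adult, 37 from left to right, 6501 between developmental wells split by Pou4f1 and 3417 between C57BL/6 wells so split. DESeq2 called 902, 425, 632, 21 and 1359 from E11 to E13, E13 to E15, E15 to E18, P4 to P7 and P7 to adult, 1 from left to right and 5954 by Pou4f1 on the developmental plates. A fit of the 4 plates alone called 0 from E13 to E15, 0 from E15 to E18, 528 from E18 to P4, 541 from P4 to P7, 9556 from E11 to P7 and 9543 in Pou4f1-positive wells. Spliced transcripts alone gave 4 calls from E13 to E15 and 4 from E15 to E18. Leaving out wells above 3 times the median gave 56 calls from E15 to E18 and 0 from P4 to P7. Leaving out 1 plate at a time gave 28 (without E11 replicate 2) to 1078 (without E18 replicate 1) calls from E11 to E13, 1 to 350 (without either E18 plate) from E13 to E15, 4 (without E15 replicate 1) to 2100 (without E18 replicate 2) from E15 to E18, 574 (without P4 replicate 2) to 5695 (without E18 replicate 2) from E18 to P4, 0 to 1 from P4 to P7, 27 (without P7 replicate 1) to 1572 (without E18 replicate 2) from P7 to adult, 2107 to 6580 from E11 to P7, 2977 to 6475 in Pou4f1-positive wells, 18 to 39 from left to right, 3253 to 3742 by Pou4f1 on the developmental plates and 1194 (without the plate of both sides) to 2348 on the C57BL/6 plates. From E18 to P4 880 genes were called without P4 replicate 1 and 1670 without E18 replicate 1. The causes were not tested.

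The labels do not say that replicate numbers pair plates. Over 21 pairs of stages the deviations of same-numbered plates correlated from -0.496 to 0.397, above 0.1 in 6, and left and right plates correlated at 0.271, over 2 numbers only. With the replicate block 4 genes were called from E13 to E15, 16 from E15 to E18 and 6 from left to right, against 16, 34 and 0 without it, and Sox6 from E13 to E15 and Sox8 from E18 to P4 were no longer called. No call of a member reversed its direction in any alternative; members not called were not followed through the alternatives, apart from Sox1 against Pou4f1 on the developmental plates. The Pou4f1-positive call for Sox10 from E11 to P7 (0 and 0 against 15.3 and 0.920 CPM, adjusted p = 0.0285) was lost without E11 replicate 1 (0.125) or 2 (0.114) or P7 replicate 1 (0.313). The filter for that Sox10 call also covered the adult plates, with up to 485 CPM in such wells, so the call is a description only. Of 110 shares of positive wells, 93 moved by more than 1 SD between plates (for a single plate, by more than the mean arm of its 95% interval) when thinned, 83 with at least 2 UMIs and 18 with wells of at least 2000 counts. Depth limits Sox1, Sox3, Sox8 and Sox10, each with under 100 counts on most developmental plates.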

Other observations

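Other Sox genes outside the 10 were mostly at low counts, and 6 of the 9 listed (Sox7, Sox12, Sox13, Sox14, Sox15, Sox17, Sox18, Sox21, Sox30) passed the filter between stages. Sox12, the remaining SoxC gene, and Sox13, the remaining SoxD gene, fell from E11 to P7 in all kept wells and in Pou4f1-positive wells (edgeR, 2 of 6 and 2 of 3 tested, where 13.2% and 16.2% of all genes were lower). Sox12 fell again from P7 to adult (1 of 6 tested, with 1.82% of all genes lower). Within developmental plates Sox12 was higher and Sox13 lower in Pou4f1-positive wells, the only 2 tested, where 19.2% of all genes were higher and 16.6% lower. On C57BL/6 plates Sox13 and Sox21, a progenitor gene of the SoxB2 group, were lower there, 2 of 3 tested, with 10.8% of all genes lower.

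Of 11 listed partner factors and host transcripts (Sox2ot, Sox1ot, Pou3f1, Pou3f2, Pou3f3, Pou3f4, Pou2f1, Pax6, Ctbp2, Nfia, Nfib) 5 fell from E18 to P4 (Pou3f2, Pou3f4, Pax6, Ctbp2, Nfia), where 10.4% of all genes were lower. Pou3f1 and Pou3f4, POU factors of neurons, were higher in Pou4f1-positive wells on both sets, and Sox2ot, Pou3f2, Pax6, Nfia and Nfib were lower. Of the 8 genes reported as SoxB1 targets in neural progenitors, all 6 tested on the developmental plates and all 7 tested on the C57BL/6 plates were lower in Pou4f1-positive wells, with medians of -3.41 and -2.64 on the log2 scale against 0.03 and 0.00 over all genes. There 16.6% and 10.8% of all genes were lower. The target list shares Nes, Hes1, Hes5 and Fabp7 with the progenitor and radial glia markers, whose part in this count was not tested. Pou4f1-negative wells also entered the filter on low counts, so the count is a description only.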
